A study of Drosophila melanogaster with 8 samples.

Results

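The genes described here are 9 transporters of Drosophila melanogaster that belong to the proton-assisted (SLC36) and SLC38-like amino acid transporter families. They were chosen by name from their family, not by level, and all 9 had a row among the 11773 genes of the deposited tables. Of these, 7 are SLC36 genes, namely path, CG13384, acs (CG1139), CG7888, CG8785, CG16700 and CG4991. CG13743 and CG30394 are SLC38-like. The libraries came from DH44 neurons, which make the diuretic hormone peptide DH44, related to vertebrate corticotropin-releasing factor, taken from brains of flies of genotype DH44-GAL4;UAS-mCD8gfp at 5 days on normal food. The GAL4 driver marked the cells with a membrane-bound green fluorescent protein, so the cells picked were those that the driver labels. There were 8 libraries, numbered as in the sample titles, in 1 group with no second genotype, diet or cell type. The labels speak both of individual cells and of single cells pooled in situ, and name no animal, so the spread between libraries may be that between cells or small pools.

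Several SLC36 proteins carry amino acids together with protons. In mammals the best known of them, PAT1, moves small neutral amino acids across the plasma membrane and out of lysosomes, and has been tied to the growth kinase complex TORC1. SLC38 proteins of mammals are sodium-coupled carriers of neutral amino acids such as glutamine. In the fly, path (pathetic) promotes growth and is needed for the growth of neurons with large dendrites. The title of the series speaks of an internal sensor of dietary amino acids, and transporters are one way for amino acids to reach the inside of a cell.

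Values were FPKM, which is set relative to exon length and to the mapped fragments of the library, so that levels of different genes can be set side by side. Summed FPKM lay between 812029 and 935440 per library, and the number of reads behind a value is unknown. Between 2518 (library 1) and 5256 (library 4) genes reached 1 FPKM in a library, and library 8 had 3798. Libraries 1 and 8 stood apart: of the genes at 1 FPKM or more in at least 4 libraries (called detected from here on), 50.8% were listed at 0 in library 1 and 28.6% in library 8, against a median of 10.9% over the 8 libraries. The labelled cell type was checked with its markers. Dh44 alone made up 2.81% (library 8) to 11.1% (library 2) of summed FPKM. The 8 neuronal genes and the 6 genes of peptide secretion that were measured were all detected. Genes of other cell types were detected too. The counts were 4 of 6 fat body, 6 of 7 photoreceptor, 4 of 7 glial, 4 of 4 hemocyte, 2 of 5 muscle and 3 of 4 insulin cell genes. By the same rule 41.2% of all genes were detected, and the muscle share, 40%, was not above that. Insulin cell genes made up 3.84% of library 3, against 0.114% to 0.698% elsewhere, and Ilp2 had a median of 2724 FPKM. Photoreceptor genes made up 0.838% of library 8, against 0.0827% to 0.233% elsewhere. In library 8, Rh5 held 3995 of their 7844 FPKM. Rh5 was at 7.81 FPKM in library 2, 6.62 FPKM in library 5 and 0 in the remaining 5 libraries. ninaE, Arr2, ninaC and trp were also highest in library 8, Arr1 was not, and norpA was at its lowest.

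CG13743 and path carried most of the signal of the 9 genes in 7 of the 8 libraries. They were at 1 FPKM or more in all 8 libraries, as were 11% of all genes, and together they held a median of 87.5% of the summed FPKM of the 9 genes, from 44.5% in library 5 to 97.9% in library 8. CG13384, CG30394 and CG16700 were lower and uneven, and CG7888 and CG4991 reached 1 FPKM in 3 libraries each, a class (1 to 3 libraries) that held 25% of all genes. The genes acs and CG8785 were listed at 0 in every library, as were 30.1% of all genes. In all, 5 of the 9 genes were detected, against 41.2% of all genes by the same rule. The summed FPKM of the 9 genes had a median of 360 and ranged from 225 in library 5 to 517 in library 3.

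**Figure D1:**
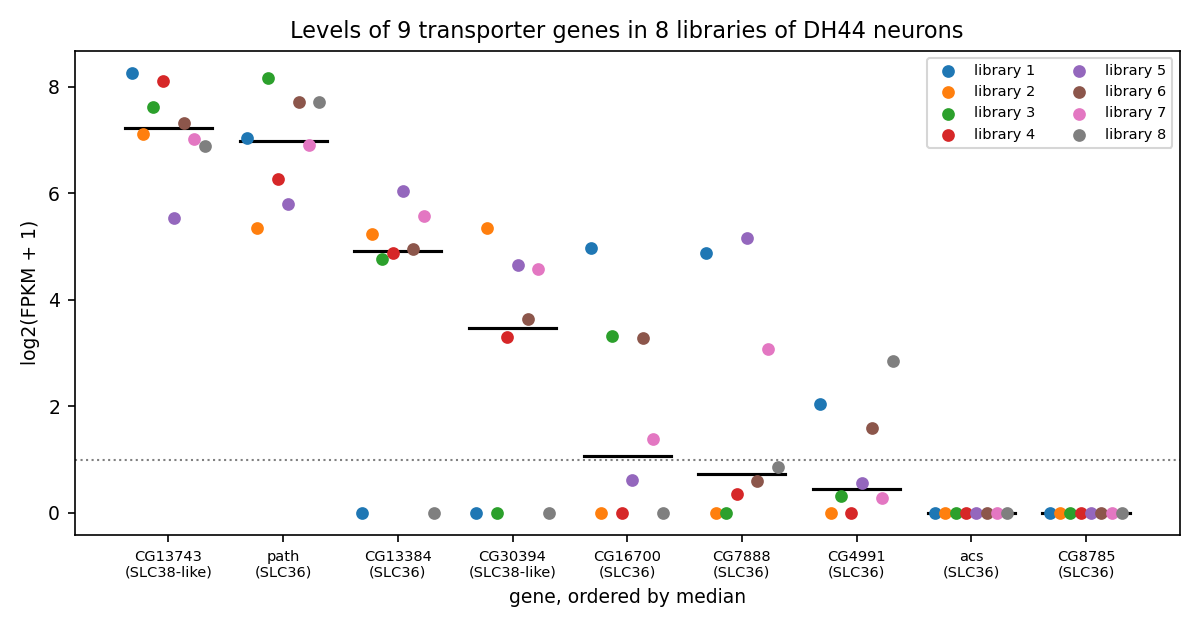
Level of each of the 9 genes, as log2(FPKM + 1), in each of the 8 libraries; each point is 1 library, the black bar is the median, and the dotted line marks 1 FPKM. CG13743 and path lie above the line in all 8 libraries, and acs and CG8785 are at 0 throughout.

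The SLC38-like gene CG13743, a predicted transporter, had the highest median, 148 FPKM. Its values were 306, 138, 196, 274, 45.6, 159, 129 and 118 FPKM in libraries 1 to 8. Libraries 1 and 4 were high and library 5 was low, a range of 6.71-fold. The median of CG13743 ranked 596 among all genes, and 94.9% of genes had a lower median. CG13743 (FBgn0033368) is annotated on the minus strand of chromosome 2R, at 9044850 to 9060608 of assembly BDGP6.54, with 3 transcripts and 3543 bp of exons. Its 5′ untranslated region shares 20 bp with the 3′ end of CG8197 on the same strand, and CG8197 was listed at 0 in all 8 libraries.

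The SLC36 gene path had a median of 125 FPKM. In libraries 1 to 8 it stood at 131, 39.8, 285, 76.0, 54.7, 208, 119 and 209 FPKM. Libraries 3, 6 and 8 were high and libraries 2 and 5 low, a range of 7.17-fold. The median of path ranked 679 among all genes. path (FBgn0036007) is annotated on the minus strand of chromosome 3L, at 9494555 to 9505328, with 3 transcripts and 3195 bp of exons, and no other annotated gene overlaps its exons.

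CG13743 and path could not be put in order. CG13743 was higher in 4 libraries (1, 2, 4 and 7) and path in the other 4. The ratio of CG13743 to path was 0.563 in library 8 and 3.61 in library 4, at the ends of its range. The median difference within libraries was -0.07 on the log2(FPKM + 1) scale, CG13743 minus path, with an SD of 1.08 over the 8 libraries. The difference was therefore smaller than the spread between libraries.

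**Figure D2:**
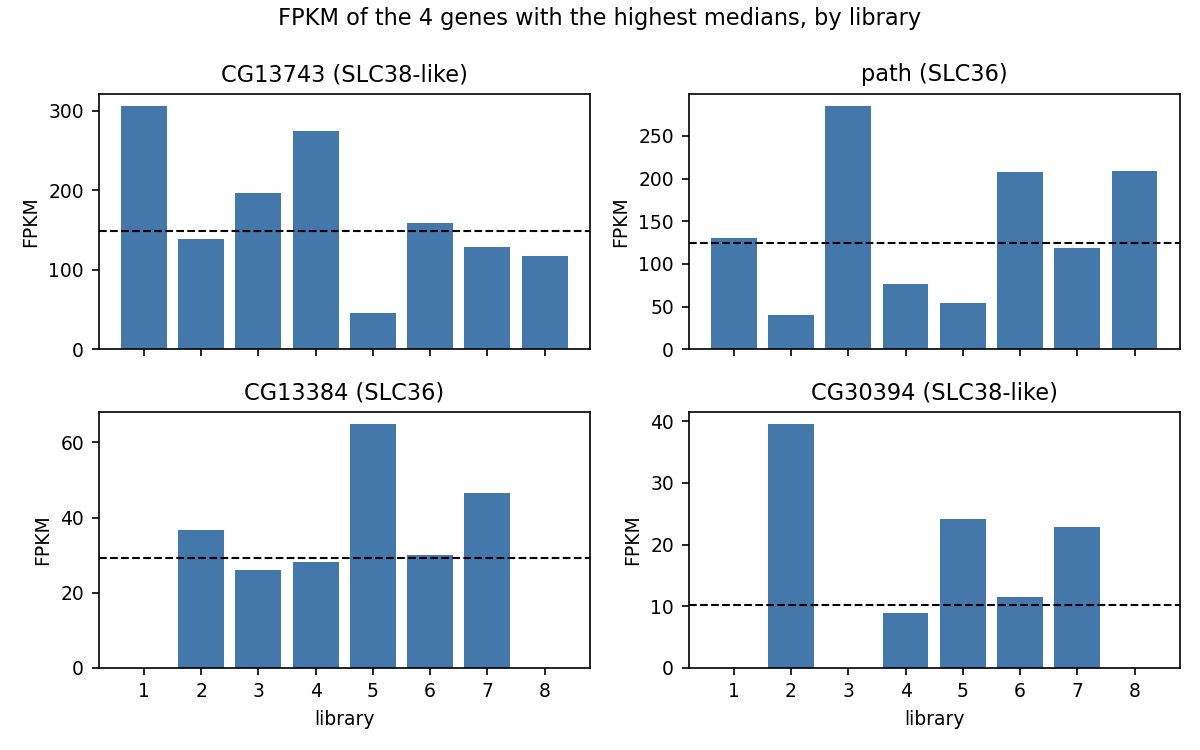
FPKM of CG13743, path, CG13384 and CG30394 in libraries 1 to 8; each bar is 1 library, the dashed line is the median, and each panel has its own axis from 0. CG13384 is at 0 in libraries 1 and 8, and CG30394 in libraries 1, 3 and 8.

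Within the wider set of 40 amino acid transporters measured, the 9 genes held between 14.5% (library 5) and 36.8% (library 8) of the summed FPKM. The cationic amino acid transporter gene CG13248 was the highest of the 40 in 7 libraries. In library 8, path was the highest at 209 FPKM. There CG13248 had its lowest value, 84.7 FPKM, and the 28 other transporters outside these families had their lowest share of the library, 0.0578% against 0.115% to 0.162% in the other 7. Across libraries 1 to 7, path took ranks 2 to 7 and CG13743 ranks 2 to 7 among the 40. CG13743 was second in libraries 1 and 4, and path in libraries 3 and 6. Of those 28 transporters, 15 (53.6%) were detected, against 41.2% of all genes. The highest medians after CG13248 (832 FPKM) were CD98hc, the heavy chain of heterodimeric transporters, at 79.5 FPKM and sbm, a light chain, at 39.6 FPKM. Both CG13743 and path had higher medians than CD98hc.

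CG13384, a predicted proton-assisted transporter, came next, with a median of 29.2 FPKM. It was listed at 0 in libraries 1 and 8, and the values in libraries 2 to 7 were 36.6, 26.1, 28.3, 64.9, 30.1 and 46.5 FPKM. These 6 libraries lay close together, with library 5 the highest. The SD of log2(FPKM + 1) was 2.46 over the 8 libraries and 0.49 over these 6, so libraries 1 and 8 set most of the spread. CG13384 was lower than path in 7 of 8 libraries and lower than CG13743 in 7 of 8, the exception in both cases being library 5, where it was the highest of the 9 genes. CG13384 (FBgn0032036) is annotated on the plus strand of chromosome 2L, at 8384455 to 8388804 and has 11 transcripts and 2881 bp of exons. The last 77 bp of its 3′ untranslated region lie opposite that of CG42819, whose median was 0.485 FPKM.

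CG30394, the second SLC38-like gene, had a median of 10.1 FPKM. It was listed at 0 in libraries 1, 3 and 8. In libraries 2, 4, 5, 6 and 7 the values were 39.5, 8.83, 24.2, 11.4 and 22.9 FPKM. Its highest value lay just below the lowest value of path, 39.8 FPKM, and below the lowest of CG13743, 45.6 FPKM, so the ranges did not overlap, although the gap to path was narrow. CG30394 was lower than CG13384 in 5 of the 6 libraries where either was above 0, and higher in library 2. CG30394 (FBgn0050394) is annotated on the minus strand of chromosome 2R, at 21320040 to 21323320, with no exon overlap.

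Zeros in libraries 1 and 8 were frequent among all genes at these levels. Among the 200 genes nearest to CG13384 in mean level, 52.5% were listed at 0 in library 1 and 34% in library 8, against 1.5% to 15.5% in the other 6. For CG30394 the shares were 68% in library 1, 38% in library 3 and 46.5% in library 8. Of the 4090 genes that reached 1 FPKM in at least 5 libraries, 13.7% were listed at 0 in both libraries 1 and 8. Of the 9 genes described here, 4 reached that number of libraries: CG13384 and CG30394 were at 0 in both, and path and CG13743 in neither. Transporters of the wider set that reached 1 FPKM in at least 5 libraries, named after their values were seen, were mixed. sbm, CG12531, mnd, gb and CG10804 were also at 0 in both. JhI-21 and VGAT were at 0 in library 1 but not in library 8, and Eaat2 was the reverse. CG13248, CD98hc, Eaat1 and CG13795 were above 0 in libraries 1 and 8. The same 2 libraries had the lowest shares of neuronal genes, 0.121% (library 1) and 0.0534% (library 8) against 0.175% to 0.226% in the other 6. The shares of Dh44 and of the summed peptide secretion genes were below the other 6 in library 8 but not in library 1. Dh44 was at 2.81% in library 8 and 5.26% in library 1, near the low end of 5.21% to 11.1% elsewhere. The peptide secretion sum was at 0.322% and 1.12%, against 0.828% to 1.45%. Single peptide secretion genes were mixed in library 1. There dimm was at 0, Syt4 was at its lowest of the 8 libraries, and amon was at 407 FPKM, against 780 to 1195 FPKM in libraries 2 to 7. 7B2, svr and Phm were not below the other 6 there. Libraries 1 and 8 had the highest shares of fat body genes, 6.99% and 7.31% against 1.53% to 4.86%. Of the 6 fat body genes measured, Yp1, Yp2, Yp3 and Lsp2 made up nearly all of this share in every library, Fbp2 was at 0 in all 8 and Fbp1 in 7. The part of cell makeup and of library quality in the zeros was not tested, and fewer neurons and less RNA per neuron cannot be told apart in these libraries.

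Among the 4 leading genes, CG13384 and CG30394 varied alike and the other pairs less so or in opposite directions. Across the 8 libraries, log2(FPKM + 1) of CG13384 and CG30394 had a Pearson correlation of 0.78 and a Spearman correlation of 0.91. With libraries 1 and 8 left out the Pearson value was 0.64 over 6 libraries. path and CG30394 ran in opposite directions, with a Pearson correlation of -0.74 and a Spearman correlation of -0.83, and -0.78 without libraries 1 and 8. The 3 libraries where CG30394 was listed at 0 had path at 131, 285 and 209 FPKM, and the library with the highest CG30394, library 2, had the lowest path. CG13743 and path had a correlation of 0.32. For CG13743 and CG13384 it was -0.38, and -0.92 over the 6 libraries. The remaining pairs were path with CG13384, at -0.40 (Spearman -0.67), and CG13743 with CG30394, at -0.46 (Spearman -0.49). These 6 pairs are descriptions over few libraries, which share depth and makeup, and carry no test.

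Marker sums were set beside the leading genes. The Pearson correlation of path with the summed level of 7 glial genes was 0.68, and that of CG30394 with the same sum was -0.71. The summed glial level was lowest in library 2 (48.1 FPKM) and highest in library 3 (337 FPKM), which were also the libraries with the lowest and the highest path. Library 3 had the highest insulin cell sum too, 32919 FPKM. Of the 7 glial genes, Gs2, nrv2, Eaat1 and Indy were detected, repo was at 0 in 4 libraries, moody in 3 and wrapper in 5. Single glial genes differed from their sum: nrv2 was highest in library 5, at 181 FPKM, where path was at 54.7 FPKM, and Eaat1 was at 7.23 FPKM in library 3, where path was highest. For the summed fat body level the correlations were 0.55 with path, -0.81 with CG13384 and -0.82 with CG30394 (Spearman 0.55, -0.54 and -0.59). In the same order they were 0.42, -0.66 and -0.54 for the photoreceptor sum and 0.46, -0.47 and -0.51 for the muscle sum. Both of these sums were highest in library 8, where single genes weighed heavily. There Rh5 held 3995 of 7844 FPKM of the photoreceptor sum, and Mlc1 held 262 of 299 FPKM of the muscle sum. For the hemocyte sum they were -0.20, -0.53 and -0.08. Markers of the labelled cells ran the other way. The insulin cell sum, of another cell type, had 0.22, 0.68 and 0.11, so a positive value for CG13384 was not particular to the labelled cells. CG13384 had Pearson correlations of 0.87 with the neuronal sum, 0.72 with Dh44 and 0.71 with the peptide secretion sum. The Spearman values were 0.20, 0.56 and 0.72, so the high neuronal value did not hold by rank. CG13384 was at 0 in libraries 1 and 8, which had the lowest neuronal sums. With the same 3 measures CG30394 had 0.58, 0.69 and 0.71 (Spearman 0.15, 0.68 and 0.68). For path they were -0.30, -0.34 and -0.54 (Spearman -0.10, -0.43 and -0.71). CG13743 had Pearson correlations between -0.26 and 0.26 with each of the 9 marker sums, and Spearman correlations between -0.43 and 0.40. The part of other cell types in the path values was not tested.

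Among the lower genes, CG16700 and CG4991 are neighbours that share their start on the X chromosome. CG16700 (FBgn0030816) spans 17091854 to 17098488 and CG4991 (FBgn0030817) spans 17091854 to 17104562, both on the plus strand. They share a first exon of 278 bp, which is 11.4% of the exons of CG16700 and 11.1% of those of CG4991. For CG4991 it is 5′ untranslated, and for CG16700 all but 12 bp of it is. Fragments in that exon could be given to either gene.

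**Figure D3:**
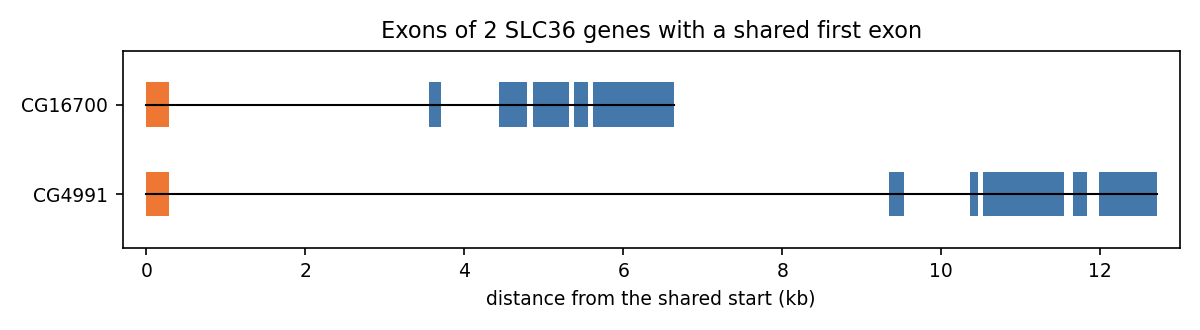
Exons (boxes) and introns (lines) of CG16700 and CG4991, with all transcripts merged, in kb from their shared start; the first exon, in orange, is common to both genes. The remaining exons of CG4991 begin beyond the last exon of CG16700.

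CG16700 had a median of 1.09 FPKM and was at 30.3, 9.04, 8.80 and 1.63 FPKM in libraries 1, 3, 6 and 7. It was 0.543 FPKM in library 5 and listed at 0 in libraries 2, 4 and 8. CG4991 had a median of 0.364 FPKM. It reached 6.23, 3.10 and 2.04 FPKM in libraries 8, 1 and 6, lay between 0.216 and 0.479 FPKM in libraries 3, 5 and 7, and was listed at 0 in libraries 2 and 4. Both genes were thus at 0 in libraries 2 and 4, and CG4991 was above 0 in library 8 where CG16700 was not.

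CG7888 had a median of 0.661 FPKM with a few high libraries. It was at 35.0 FPKM in library 5, 28.6 FPKM in library 1 and 7.40 FPKM in library 7, below 1 FPKM in libraries 4, 6 and 8, and listed at 0 in libraries 2 and 3. CG7888 (FBgn0036116) is annotated on the plus strand of chromosome 3L, at 11054035 to 11059659. It shares 223 bp, all in 3′ untranslated sequence, with the opposite strand gene CG6321, which was at 3.20 FPKM in library 5, 18.9 FPKM in library 8 and 0 elsewhere. CG7888 is the last of 4 SLC36-type genes within 34.1 kb. The first of these, CG32079, was at 28.1 FPKM in library 6 and listed at 0 in the other 7, and CG32081 was at 7.35 FPKM in library 4 and listed at 0 in the other 7. The remaining one, CG43693, had no row.

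CG16700, CG7888 and CG4991 could not be ordered by level. CG16700 was above CG7888 in 3 libraries and below it in 4, and CG7888 was above CG4991 in 4 and below it in 3. In each pair the ranges overlapped. Each of the 3 lay below the lowest value of path and of CG13743 in all 8 libraries.

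The growth-promoting transporter gene acs and its relative CG8785 were listed at 0 in all 8 libraries. acs (FBgn0035300) is annotated on the plus strand of chromosome 3L, at 1971638 to 1974285, with 1 transcript and 1578 bp of exons, the shortest of the 9. CG8785 (FBgn0033760) is annotated on the minus strand of chromosome 2R, at 12640690 to 12648224, with 2189 bp of exons. Since the number of reads is unknown, a value of 0 is not read as absence.

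By family, the 7 SLC36 genes summed to a median of 184 FPKM (76.5 in library 2 to 321 in library 3). The 2 SLC38-like genes summed to 174 FPKM (69.8 in library 5 to 306 in library 1). The SLC36 sum was the larger in libraries 3, 5, 6, 7 and 8. Both ranges overlapped almost wholly.

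The spread of each gene was set beside the median spread of genes at a similar level. The SD of log2(FPKM + 1) was 0.85 for CG13743 and 0.99 for path, where the median SD of genes around the same mean was 1.12 and 1.20. For CG13384 the SD was 2.46 against 2.41, and for CG30394 2.31 against 2.38. CG4991 lay furthest from its neighbours, at 1.07 against 1.70. CG16700 had an SD of 1.92 against 2.04 and CG7888 of 2.18 against 2.22.

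**Figure D4:**
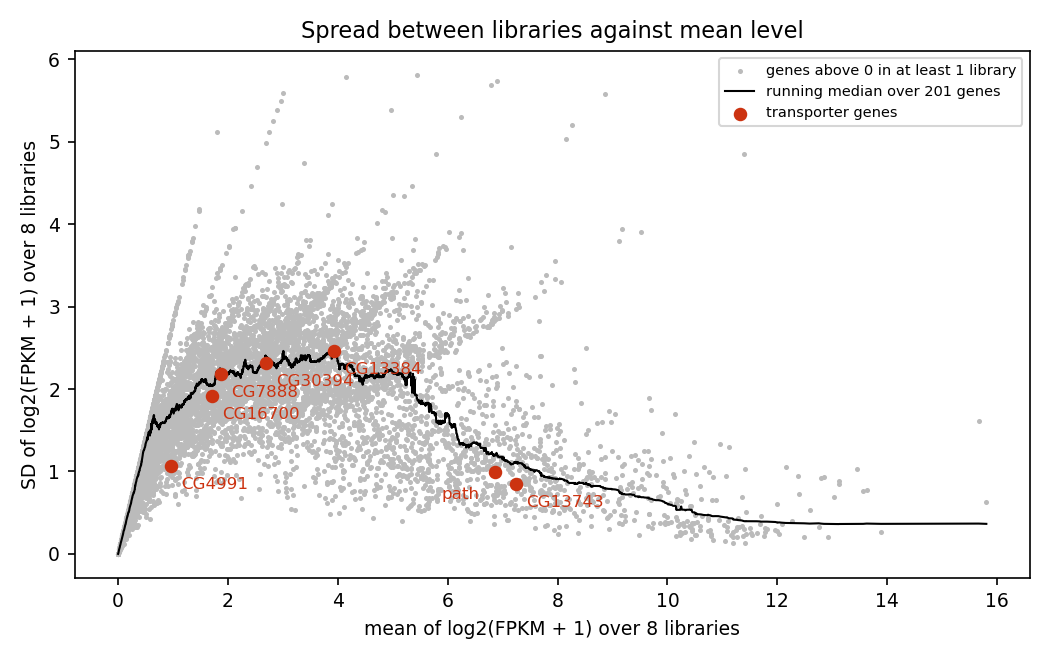
SD over 8 libraries against mean level, both in log2(FPKM + 1), for genes above 0 in at least 1 library (grey) and for the 7 transporter genes above 0 (red); the black line is the running median of the SD. CG13743 and path lie at the right with SDs of 0.85 and 0.99, slightly under the line.

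Genes whose pattern over the 8 libraries was most like a transporter's were sought by Pearson correlation among 3151 genes whose log2(FPKM + 1) averaged at least 3. For path they included CG8128 (0.92) and CG10311 (0.89). For CG13743 they were Grx5, a mitochondrial glutaredoxin (0.93), CNBP, a zinc finger protein that binds nucleic acids (0.90), and Nplp3, a neuropeptide-like precursor (0.89). For CG13384 they were CG5934 (0.99), Rop, the fly Munc18 protein of vesicle release (0.99), and Idh3b, a subunit of mitochondrial isocitrate dehydrogenase (0.99). A correlation of 0.9 or more was reached by 260 of the 3151 genes for CG13384, but by 2 for path and 1 for CG13743. Without libraries 1 and 8, where CG13384 was listed at 0, the values of its 3 genes were 0.82, 0.78 and 0.70. For CG8128 and CG10311 with path they were 0.92 and 0.96 without these libraries, and for the 3 genes named with CG13743 0.93, 0.86 and 0.85. When the search itself was repeated without these libraries, 1 of the 3 genes found for path was again among its 3 most alike, and none of those for CG13743 or CG13384. So many genes were searched over so few libraries that high values arise readily, and they carry no test.

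Some genes through which amino acids act on growth were detected beside the transporters. Of 29 listed TORC1 and amino acid signalling genes, 18 had a row. Those without one included RagA-B, RagC-D and Lst8. Of the 18 measured, 14 were detected, against 41.2% of all genes. The highest medians were those of crc, which encodes the ATF4 transcription factor of fly (371 FPKM), and of Lamtor3 (264 FPKM) and Lamtor2 (143 FPKM), subunits of the Ragulator complex that anchors TORC1 signalling at the lysosome. The 2 Ragulator genes were uneven between libraries. Lamtor3 ranged from 12.0 to 664 FPKM and Lamtor2 from 29.9 to 897 FPKM, against 255 to 597 FPKM for crc. mTor, the kinase of TORC1, had a median of 0.530 FPKM and reached 1 FPKM in 3 libraries. raptor was listed at 0 in 7 libraries, mio in 6 and Gcn2 in 5. All 6 lysosomal genes measured were detected, led by the protease genes cathD (1373 FPKM) and CtsL1 (363 FPKM) and the proton pump subunit gene Vha55 (263 FPKM). Of 7 further listed genes of SLC36 or related type, CG43693, CG12943, mah and polyph had no row. Of the 3 that were measured, VGAT, the vesicular transporter of GABA, was detected, with a median of 12.5 FPKM.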

How the data were processed

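RNA of DH44 neurons was measured in 8 libraries by a modified SMART-seq2 protocol, with cDNA sheared to about 250 bp. The authors deposited 1 FPKM value per gene and library. Low-quality reads, adaptors and primers were removed and reads were mapped to the fly genome, per the labels' protocols and the series' design text, and TopHat is among the tools named in the submitters' processing notes. For the TopHat version, genome build, annotation, FPKM program and strand use, nothing is given in the sources used here. Without strand, antisense reads cannot be told apart. Depth is unknown: values above 0 reached down to 9.13e-317 FPKM, so whole reads were not recovered and no interval or floor is given.

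Identifiers were matched to symbols (11646 of 11773). Coordinates and exon overlaps came from Ensembl release 115, BDGP6.54. The values may rest on another build. All libraries form 1 group, so no test was made, and results are FPKM with median and range. Logarithms used a pseudocount of 1. Named were the 9 genes, their exon partners, the 3 genes most like each gene that reached 1 FPKM in at least 6 libraries, and the 3 highest detected genes of each pathway list. CG32079, CG32081, mTor, raptor, mio, Gcn2 and marker genes were added after their values were seen. One gene among those most like path is not reported here. The genes and lists were chosen with earlier results of these data known. The code of the likeness search was checked on simulated data with planted genes. That check does not bear on the genes named here. A planned comparison of protein sequences was not made. Analyses used Python 3.11.15, pandas 2.3.3, numpy 2.4.6 and scipy 1.17.1. Alternatives covered thresholds, scaling, pseudocount and libraries left out.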

Additional observations from a re-analysis of the deposited data

Results flagged for a closer look

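CG16700 stood out in library 1, at 30.3 FPKM against 9.04 FPKM in the next library. The gap was 0.702 of the range over the 8 libraries, above Dixon's 95% critical value for 8 values. Of 8 items examined in this way, the 7 genes above 0 and their sum, it was the 1 that did so. Chance flags about 1 in 20 under a normal distribution, and FPKM is skewed towards high values. In library 1, CG4991, which shares its first exon, was at 3.10 FPKM, and library 1 had the fewest genes at 1 FPKM or more, 2518. The part of the shared exon and of the library in this value was not tested.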

How the results depend on the processing

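No paired analysis was possible because all libraries belong to 1 group. The number of the 9 genes detected, 5, became 3 when 1 FPKM was required in at least 6 libraries, and 7 at 0.1 FPKM or in at least 2 libraries. It was 4 at 5 FPKM and 4 without libraries 1 and 8, a choice made after seeing the data, and 6 when libraries were rescaled without ribosomal protein genes. The median summed FPKM of the 9 genes, 360, became 494 under that rescaling, which raises every value by construction. It became 136 without the 5 genes whose exons overlap another gene, CG13743 and CG13384 among them. The other scalings gave 334 and 389, and leaving out libraries 1 and 8 gave 357. The difference between CG13743 and path ranged from -0.26 to 0.12 on the log2 scale with each library left out in turn and was 0.37 as a mean, so its sign was not stable. CG13743 had the highest median and path the second with each library left out. A pseudocount of 0.1 raised the SD of CG13384 to 3.97. Under Spearman correlation 1 of the 3 genes most like path by Pearson correlation was still among its 3 most alike, and none of those for CG13743 or CG13384. With a pseudocount of 0.1, 1 of the 3 for CG13743 was. The cause was not tested. Unknown depth limits every value near 0.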
